A study of Caenorhabditis elegans with 2 samples.

Results

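The genes described here are the col collagens of Caenorhabditis elegans, chosen by name: every row of both expression tables whose gene identifier begins with col- and a number. There were 156 such names among 41560. The name col-127 stood on 2 rows at neighbouring places on chromosome IV, so the 156 names filled 157 rows. In a reference table of gene names 154 were protein-coding, col-182 was a pseudogene, and col-70 had no match. To these were added the listed peaks that overlapped a locus by at least 1 base, 490 of 77986 in the CAR-1(FL) list and 472 of 105255 in the CAR-1(dSm) list.

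The assay was seCLIP-seq, in which RNA crosslinked to a protein is pulled down with it and sequenced; the protein was CAR-1, an LSm14-type partner of mRNA that gathers in processing bodies and germ granules. CAR-1(FL) came from worms of strain CZ25180 and CAR-1(dSm) from strain CZ26430, both pulled down with GFP-trap beads, an anti-GFP binder that recovers a tagged protein. The labels do not spell out FL or dSm, nor any allele, promoter, worm stage or tissue, and both libraries share the GFP pull-down. Each group held 1 library, so no spread between cultures could be measured, no difference below was tested, and each describes these libraries only. No input library was used here, so abundance and pull-down of an RNA cannot be told apart in a level, and in whole animals fewer cells of a type and less RNA per cell cannot be told apart.

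Cuticle collagens are short secreted proteins with Gly-X-Y repeats that the epidermis makes afresh at each moult. They are trimmed, trimerised and crosslinked into the layers of the cuticle, the worm's outer coat. The family is large, many members lie beside a close relative, and different sets of members are made at different stages; col-19 is a widely used marker of the adult cuticle. One member, col-99, is a transmembrane collagen and not a typical cuticle component.

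The authors' FPKM (fragments corrected for the length of the transcript and the depth of the library) came with lower and upper bounds. The bounds imply 3850 fragments on the col genes with CAR-1(FL) and 4135 with CAR-1(dSm). That was 5.90% of the fragments on protein-coding genes in CAR-1(FL), with a 95% Wilson interval of 5.72% to 6.08%, and 4.31% (4.18% to 4.44%) in CAR-1(dSm). Of all fragments on genes the shares were 1.65% (1.59% to 1.70%) and 1.12% (1.09% to 1.15%). Intervals and bounds here cover counting error only. CAR-1(dSm) was the deeper library, with 369072 implied fragments on all genes against 233959, and with 1.36 times the reads behind the peak folds (2735303 against 2011075).

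Levels were spread widely within the family. In CAR-1(FL) 107 members were listed above 0, from an FPKM of 0.0892 to 128, and the range in CAR-1(dSm) was 0.0635 to 73.5. Both libraries listed the same 36 members at 0, while 13 more were at 0 with CAR-1(FL) alone and 14 with CAR-1(dSm) alone. The mean FPKM reached 10 in 21 members and 20 in 14. The 10 highest members held 51.7% of the family's implied fragments with CAR-1(FL) and 53.99% with CAR-1(dSm). The order of the members was much alike in both libraries, with a Spearman correlation of 0.89 over the 78 members that reached an FPKM of 1 in at least 1 library. This is a description across genes of 1 family, which share their libraries.

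The highest member was col-117, which had an FPKM of 128 (bounds 117 to 140) with CAR-1(FL) and 73.5 (66.4 to 80.6) with CAR-1(dSm). It stood well above the next member, col-122, which had 65.4 (57.0 to 73.7) and 55.4 (49.3 to 61.6). With CAR-1(FL) each of the next members overlapped its neighbour within the bounds, while with CAR-1(dSm) a gap lay between col-124 (41.5 to 53.2) and col-178 (29.98 to 40.2). In CAR-1(FL), col-124 had 63.2, col-181 48.0, col-166 45.4, col-178 42.0, col-19 41.0, col-167 39.2, col-125 37.2 and col-107 32.1. In CAR-1(dSm) the same members had 47.3, 53.4, 31.6, 35.1, 29.7, 25.5, 22.8 and 23.5. The adult marker col-19 was thus among the 10 highest members in both libraries, with bounds of 34.3 to 47.6 and 25.1 to 34.3. col-181 was the only one of these 10 with a higher FPKM in CAR-1(dSm), and its bounds overlapped (40.3 to 55.8 against 46.6 to 60.1). The plot of levels shows the bounds of the first 36 members.

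**Figure D1:**
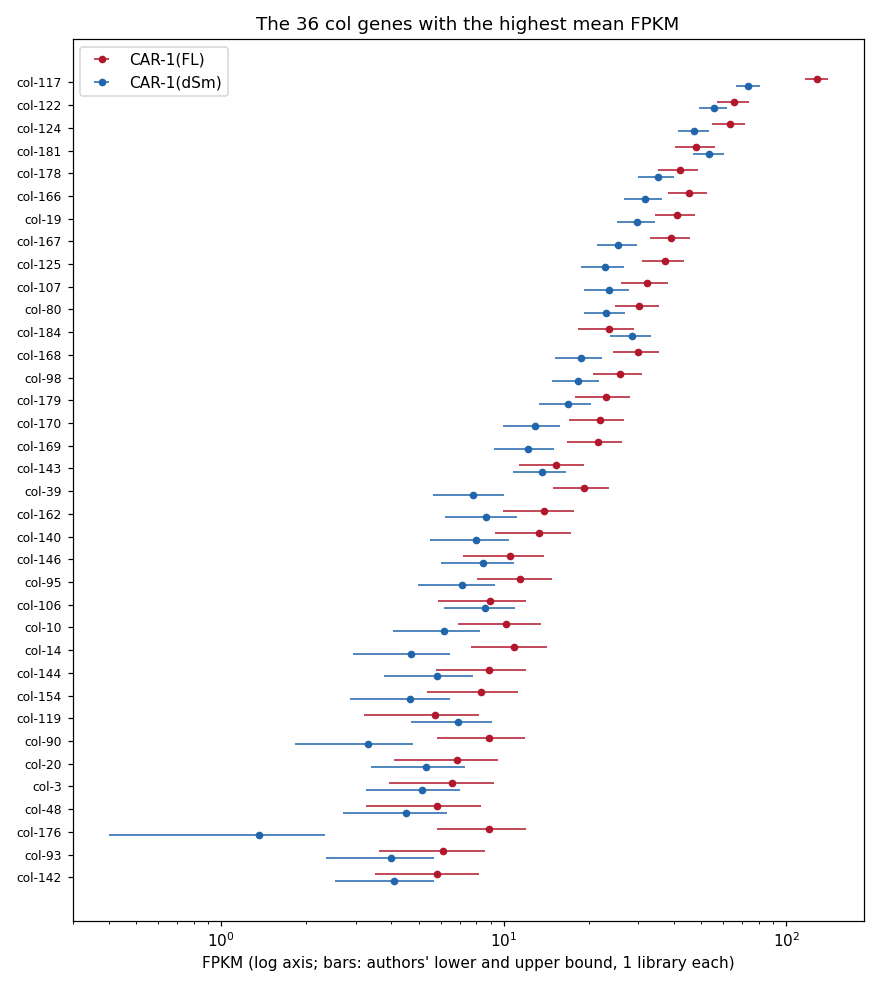
FPKM in both libraries for the 36 col genes with the highest mean FPKM, on a log axis. Points are the single library of each group and bars the authors' lower and upper bounds; col-117 stands highest, and CAR-1(FL) lies to the right of CAR-1(dSm) for all but col-181, col-184 and col-119.

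The design sets the RNA recovered with one form of CAR-1 against that recovered with the other. The difference used is log2(FPKM + 1), CAR-1(FL) less CAR-1(dSm). It was taken over the 4361 genes that reached an FPKM of 1 in at least 1 library, 78 of them col genes. Most col genes were modestly higher in CAR-1(FL): 66 lay above 0, which is 84.6% of the 78 against 54.5% of all genes, and 12 lay below. Their median difference was 0.42 (quartiles 0.24 and 0.72, range −0.82 to 2.72), against 0.07 for all genes (quartiles −0.46 and 0.54). The other 78 members were below the filter and have no part in these counts. That filter lets in a member through the library where it is higher; with no filter, over the 120 members listed above 0 in at least 1 library, the median was 0.34 and 75.8% lay above 0, against 50.2% of 11452 genes.

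At these settings, differences of at least 1 unit went one way. A difference of at least 1 unit toward CAR-1(FL) was found for 11 members, 14.1% of the 78 and near the 14.3% of all genes. Only 5 of the 11 had an FPKM of at least 1 in both libraries, so the others passed the filter through CAR-1(FL) alone. No member reached 1 unit toward CAR-1(dSm), against 15.2% of all genes, and 67 stayed within 1 unit. Bounds that lay apart, higher in CAR-1(FL), were found for 15 members (19.2%), against 2.82% of all genes, and none lay apart the other way, against 3.03%. The col genes were covered more deeply than most, with a median of 23.9 implied fragments in the better covered library against 8 for a tested gene, and narrow bounds lie apart more readily. Among genes with at least 20 fragments over both libraries, 48 of 56 col genes lay above 0 with a median of 0.43, against 54.2% of 1696 genes and a median of 0.04. The median was above that of all genes on each chromosome, from 0.35 on chromosome I, where only 4 members were tested, to 0.51 on X.

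**Figure D2:**
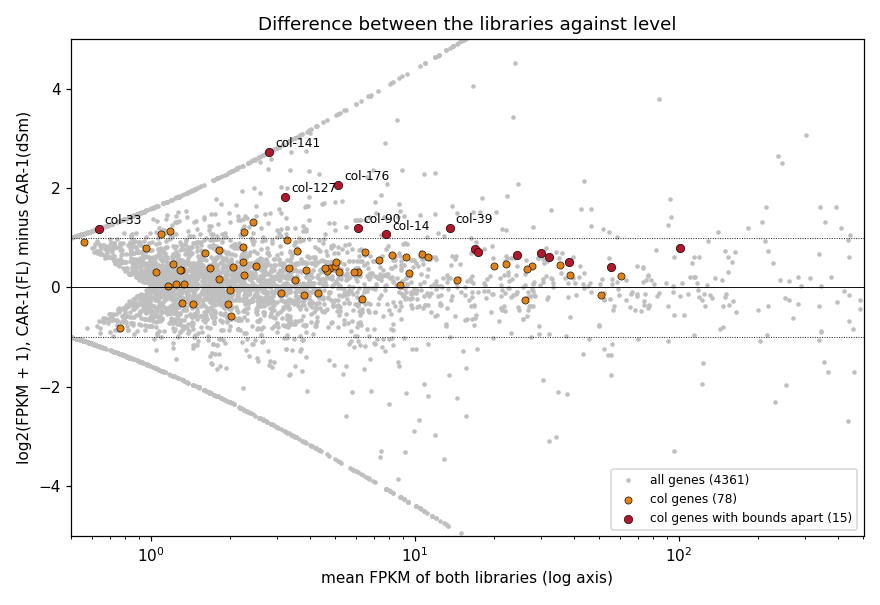
Difference between the libraries in log2(FPKM + 1) against the mean FPKM (log axis) for all genes (grey), 78 col genes (orange) and the 15 col genes with bounds apart (red). Dotted lines mark 1 unit either way, the curved rows are genes listed at 0 in 1 library, and some grey genes lie outside the axes; the col genes lie mostly above 0, with col-141, col-176 and col-127 highest.

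Among the members with bounds apart, 8 were abundant and differed by less than 1 unit. The fold for col-117 was 1.75, while the median log2 fold of its 2 listed peaks, with CAR-1(FL) on top, was −0.03. For col-124 it was 1.33, with bounds of 54.8 to 71.6 against 41.5 to 53.2. For col-166 it was 1.44 and for col-125 it was 1.63.

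The remaining abundant members of this kind are 4 close neighbours on the X chromosome, col-167, col-168, col-169 and col-170. Their FPKM was 39.2, 29.99, 21.5 and 21.9 with CAR-1(FL) and 25.5, 18.7, 12.2 and 12.9 in CAR-1(dSm), folds of 1.54, 1.60, 1.77 and 1.69. They shared a direction, and also a place, so they are not independent of each other. In the authors' deposited table of the comparison the FPKM of most genes was 5.13 times the CAR-1(FL) table and 5.25 times the CAR-1(dSm) table, but col-170 had only 0.30 and 0.14 times, col-168 0.66 and 0.61, and col-169 1.60 and 1.31. On the log2(FPKM + 1) scale the differences from the authors' deposited table were 0.53, 0.74, 1.07 and 1.46 for col-167, col-168, col-169 and col-170, against 0.60, 0.65, 0.78 and 0.72 here, so the direction held and the size for col-169 and col-170 did not. Such departures of over 1% were found for 24 of the 66 members with an FPKM of at least 1 in both libraries (36.4%), against 19.9% of 2483 genes. They included 7 of the members with bounds apart: these 4 neighbours, col-117, col-166 and col-125. The factors were 4.78 and 5.03 for col-117, 3.18 and 3.68 for col-166, and 4.08 and 4.64 for col-125. Their differences from the authors' deposited table were 0.73, 0.31 and 0.52, against 0.80, 0.51 and 0.68 here.

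The larger differences were among members of middling or low level. col-39 had an FPKM of 19.3 (14.97 to 23.6) with CAR-1(FL) and 7.82 (5.61 to 10.02) with CAR-1(dSm), 2.47-fold. col-14 had 10.9 (7.64 to 14.2) and 4.70 (2.93 to 6.46), 2.33-fold, and col-90 had 8.86 (5.83 to 11.9) and 3.30 (1.82 to 4.77), 2.68-fold. In each of these 3 genes the CAR-1(FL) value lay wholly above the range of the other library. col-176 showed the largest fold among members with at least 20 fragments and an FPKM above 0 in both libraries, 8.90 (5.82 to 11.98) against 1.37 (0.400 to 2.33), 6.52-fold, on 33.4 and 8 implied fragments.

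Members close to 0 in CAR-1(dSm) are less certain. col-141 had an FPKM of 5.61 (3.26 to 7.96) with CAR-1(FL) and was listed at 0 with CAR-1(dSm), so no fold is given. col-33 had 1.27 (0.134 to 2.41) and was also listed at 0, and it rested on 5 implied fragments. col-127, summed over its rows, had 5.57 against 0.865, 6.44-fold, but no listed peak in either library. These values come from few fragments, and the sources used here do not say how reads mapping to several places were treated.

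The opposite direction was weak. Among well covered members, the lowest were col-184, which had 23.7 (18.4 to 28.9) with CAR-1(FL) and 28.5 (23.8 to 33.3) with CAR-1(dSm), col-119 with 5.70 and 6.90, and col-41 with 1.17 and 1.74. col-129, with 8 and 10 listed peaks, had 1.42 and 2.59, a difference of −0.57. The bounds of all 12 members below 0 overlapped. Over the 55 well covered members above 0 in both libraries the log2 folds had an SD of 0.61, where the root mean square of their counting errors was 0.41, so the spread between members was somewhat larger than counting error. The highest log2 folds, 2.70 for col-176 and 2.69 for col-127, add to that SD, which was not computed without them.

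The authors' deposited table of the comparison gives p-values for 63 members, which compare 2 libraries and not conditions. For a p below 0.05, the share over all 3278 genes tested there is not given here. The count of members that follows is therefore not read as a result about the family. A p below 0.05 was given in the authors' deposited table for 4: col-141 (5e-05), col-176 (0.0172), col-90 (0.032) and col-14 (0.0426). None had a q below 0.05 in the authors' deposited table, col-141 having 0.0820, and none of the 3278 genes tested there did.

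The peaks give a second view with more reads. Each peak came with values of the authors' own that no header names. They were read here as a −log10 p and a log2 fold of its library over the other. From both, the reads behind a fold could be recovered. Both lists held peaks for 102 members, the CAR-1(FL) list alone for 14, the CAR-1(dSm) list alone for 2, and neither for 38. Some of the 14, col-33 among them, held only 1 peak. Over all gene loci, 11390 had a peak in the CAR-1(FL) list and 12960 in the CAR-1(dSm) list. How many of these loci had peaks in 1 list alone is not given here. The 14 against 2 is therefore not read as a result about the family. A member with any peak had a median of 7 over both lists, and peaks covered a median of 23.3% of its locus and at most 62%. The number of peaks followed the level only loosely, with a Spearman correlation with mean FPKM of 0.26 over 78 members. 11 of the 36 members listed at 0 in both FPKM tables had listed peaks, and 94 of 113 members had a single peak whose CAR-1(FL) reads outnumbered the fragments implied for the gene, so the reads behind the peaks are not those behind the FPKM.

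Peaks in col loci were mostly higher in CAR-1(FL), whichever list they came from. In the CAR-1(FL) list 397 of 490 had a positive log2 fold (81.0%, against 50.3% of all peaks in that list), with a median of 0.44 against 0.01. In the CAR-1(dSm) list 135 of 472 did (28.6%, against 70.1%), with a median of −0.28 against 0.36. Folds allow for the read totals, so equal reads in both libraries give a log2 fold of 0.44 toward CAR-1(FL). Peaks with equal reads, such as 3 against 3 in col-46, were thus counted as higher in CAR-1(FL), in col loci and elsewhere alike. Over the 91 members with at least 4 peaks, 81 had a median fold toward CAR-1(FL), against 38.1% of 9684 genes. The members' medians ran from −0.31 to 2.67, and 5 were at least 1, against 1.61% of genes. Peaks and FPKM had the same sign in 58 of 70 members with both, with a Spearman correlation of 0.43.

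With both the authors' −log10 p and the log2 fold at 3 or more, 5 of the 490 CAR-1(FL) peaks passed, in col-176, col-141 and col-182, against 0.0167% of all peaks in that list and 0.079% of loci with a peak. None of the 472 CAR-1(dSm) peaks passed, against 0.119% of peaks and 0.98% of loci in that list. With the log2 fold lowered to 1, 25 CAR-1(FL) peaks passed (5.10%, exact interval 3.33% to 7.44%) in 13 members, against 0.224% of peaks and 1.27% of loci. Again no CAR-1(dSm) peak passed, an exact upper limit of 0.778%, against 1.99% of that list and 5.11% of its loci. The exact interval and limit treat peaks as separate, although peaks of 1 member and of related members are not. The 25 peaks were not evenly shared: col-176 held 6 and col-101 held 5, and 14 were left without these members, which were set aside after their values were seen.

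**Figure D3:**
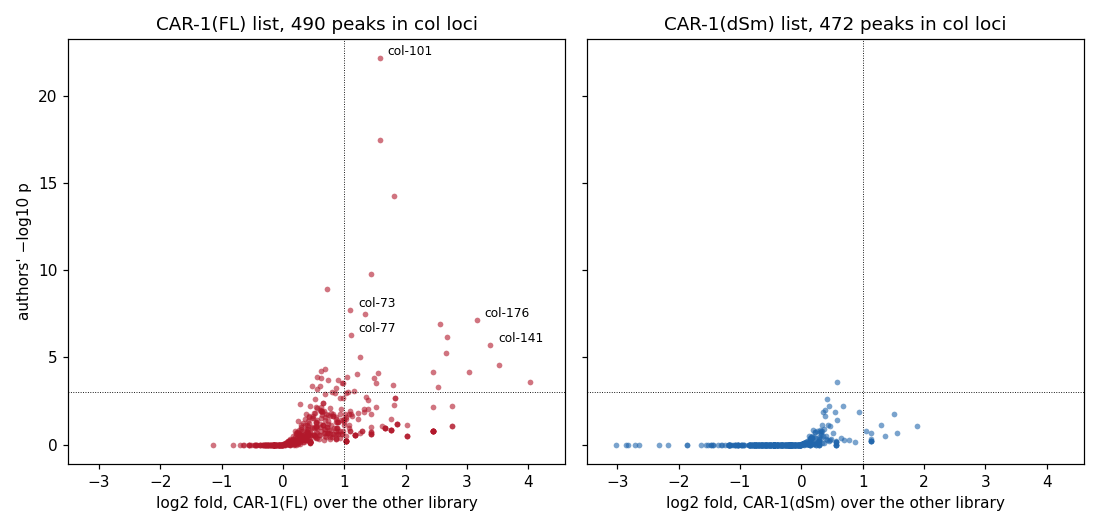
Authors' −log10 p against the log2 fold of the listing library over the other for the 490 peaks of the CAR-1(FL) list and the 472 of the CAR-1(dSm) list in col loci, 1 point per peak. The dotted lines lie at 3 for −log10 p and at 1 for the log2 fold; 25 points pass both in the CAR-1(FL) panel, led by col-101, and none in the CAR-1(dSm) panel.

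In col-176 the difference ran along the whole gene. All 6 of its CAR-1(FL) peaks were 5.44 to 8.98 times higher in CAR-1(FL), and the 6 peaks of the CAR-1(dSm) list were also higher in CAR-1(FL). Folds allow for the read totals of the libraries. The largest, chrX:10077674-10077724 on the plus strand in the ce10 build, had 33 reads against 5, 8.98-fold (exact interval 3.48 to 29.5).

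In col-101 the CAR-1(FL) peaks lay from the middle of the locus to its 3′ end. The peak at chrIV:326005-326106 on the minus strand had 236 reads against 107, 3.0-fold (2.38 to 3.81), with a −log10 p of 22.2, the highest of any col peak. Further 3′, the peak at chrIV:325588-325663 had 185 against 84, 2.996-fold (2.30 to 3.92), and chrIV:325802-325877 had 124 against 48, 3.51-fold (2.50 to 5.01). The FPKM of the same gene was 4.63 (2.43 to 6.83) and 1.91 (0.720 to 3.09) on only 17.7 and 10.3 implied fragments, so its bounds overlapped.

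The peaks of highest fold held few reads. In col-141, chrV:6829742-6829815 had 23 reads against 3, 10.4-fold (3.15 to 54.2), and chrV:6829854-6829913 had 17 against 2, 11.6-fold (2.74 to 103). The pseudogene col-182 had 12 against 1 at chrX:12636393-12636512, 16.3-fold (2.42 to 698), where a read number of 1 can stand for 0. Their intervals are wide. That they lie above 1 is no further support, since these peaks were chosen by the p and fold of the same reads.

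The remaining peaks past the lower thresholds were 2.05 to 5.78 times higher in CAR-1(FL), in 9 members. col-73 had 137 against 87 reads in 1 peak and 70 against 40 in another, both near its 3′ end, and col-77 had 109 against 69. col-90 had 58 against 34 and 46 against 28. Single peaks passed in col-103 (71 against 47), col-65 (41 against 19), col-95 (41 against 20), col-147 (36 against 17), col-167 (28 against 11) and col-154 (17 against 4). For col-147 the FPKM lay the other way, 1.62 against 2.29, with overlapping bounds.

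Among peaks higher in CAR-1(dSm), the one with the highest −log10 p was in col-119, at chrIV:8979450-8979518 on the minus strand, with 259 reads against 128, 1.49-fold (1.20 to 1.85), and a −log10 p of 3.58. It lay 34.0% of the way along the locus. It was a small difference measured on many reads.

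In col-122 and col-19, both abundant, the direction changed along the locus. Members with such a change were not counted, and the intervals come from the reads that showed it, so they are no further support. In col-122, 5 peaks between 15.7% and 37.1% of its length were 1.27 to 1.46 times higher in CAR-1(dSm), such as chrIV:9563653-9563722 with 319 reads against 176. Further 3′, at 71.9%, the peak at chrIV:9564077-9564114 was 1.45 times higher in CAR-1(FL) (1.10 to 1.90), with 115 against 108 reads before the totals are allowed for. In col-19 the peak at 23.5% was 1.49 times higher in CAR-1(dSm) (1.02 to 2.20), with 87 reads against 43, while the peak at 58.7%, chrX:422247-422284, was 1.86 times higher in CAR-1(FL) (1.33 to 2.63), with 85 against 62. Both genes thus had relatively more CAR-1(dSm) reads toward the 5′ end. In col-71, which had the most peaks (13 and 14), the 5′-most peaks, at 2.28% and 3.52% of the locus, were in the CAR-1(dSm) list alone, with 12 against 4 and 27 against 7 reads.

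**Figure D4:**
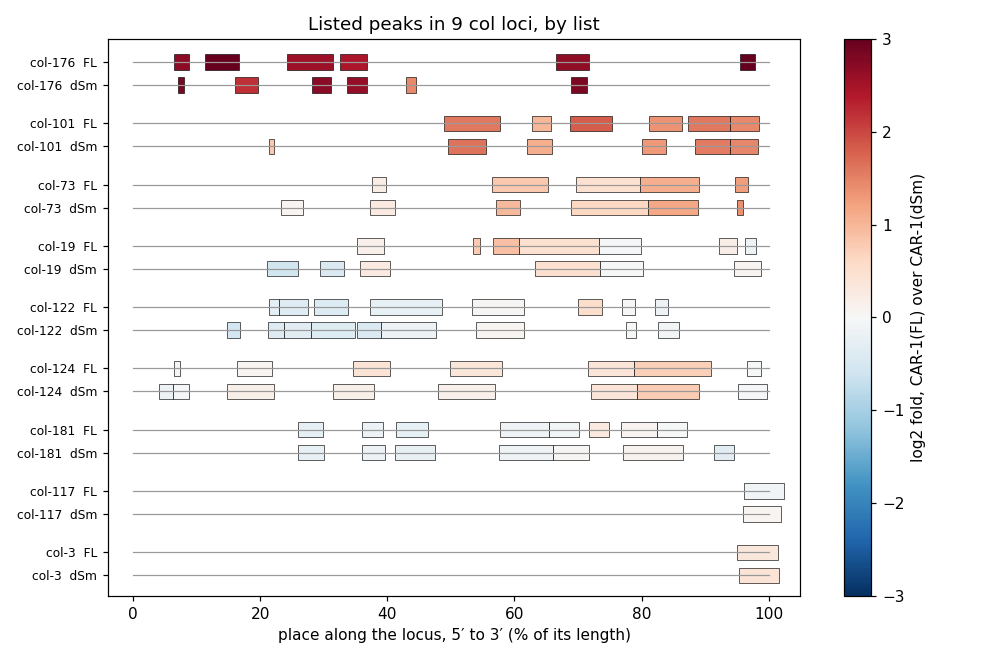
Listed peaks in 9 col loci in both lists, placed by their share of the locus length from 5′ to 3′ and coloured by the log2 fold, red for CAR-1(FL) and blue for CAR-1(dSm). col-176 and col-101 are red throughout, col-19 and col-122 turn from blue to red along the locus, and col-117 and col-3 have 1 peak per list at the 3′ end.

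Places were read on the strand of the peaks, which within a locus was the same for all but 3 of the 962 peaks, in col-48 (2) and col-74 (1). Loci were 847 to 9161 bases long, with a median of 1054. Each locus was cut into 3 equal parts. In the CAR-1(FL) list 24.9% of col peaks had their middle in the 5′ part (interval 21.1% to 29.0%), 36.1% in the middle part and 38.98% in the 3′ part. The loci set beside them span the 5th to the 95th percentile of col locus lengths, while col peaks were kept at any locus length. For 11488 peaks in these other protein-coding loci of like length, 905 to 2381 bases, the shares were 36.7%, 25.7% and 37.6%. Col peaks were therefore fewer in the 5′ part and more in the middle part in this list. In the CAR-1(dSm) list the col shares were 31.1% (26.99% to 35.5%), 28.2% and 40.7%, nearer to the 35.7%, 27.1% and 37.2% of the other loci. With loci cut into 10 equal bins, bin 1 at the 5′ end held 8.16% of col peaks against 14.9% elsewhere with CAR-1(FL) and 11.4% against 14.3% with CAR-1(dSm). These intervals treat peaks as separate, although peaks of 1 member and of related members are not.

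**Figure D5:**
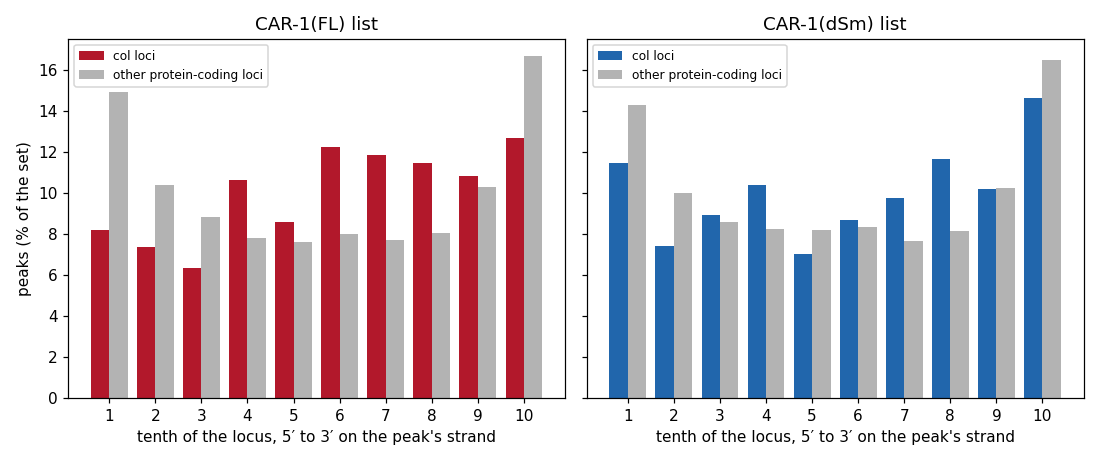
Share of listed peaks with their middle in each of 10 equal bins of the locus, 5′ to 3′, for col loci (coloured) and other protein-coding loci of like length (grey), in both lists. In the CAR-1(FL) list bin 1 holds 8.16% of col peaks against 14.9% of the others, and bin 10 is the highest of both sets.

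Over all col loci, col-19 and col-122 among them, the median fold toward CAR-1(FL) was lowest in the 5′ part. How many single members change along the locus, in either sense, is not given here. Written with CAR-1(FL) on top, the median log2 fold of CAR-1(FL) peaks was 0.31 in the 5′ part, 0.58 in the middle part and 0.41 in the 3′ part. For the CAR-1(dSm) peaks it was 0.14, 0.40 and 0.36. In other loci of like length the parts lay closer together, 0.09, 0.15 and 0.12 in the CAR-1(FL) list and −0.29, −0.36 and −0.29 for the CAR-1(dSm) list. The share of CAR-1(dSm) col peaks that met no CAR-1(FL) peak was 33.3% in the 5′ part, 16.5% in the middle part and 25.5% in the 3′ part, below the 47.6%, 55.2% and 48.6% of the other loci. The CAR-1(FL) col peaks ran the other way, with 22.1%, 34.5% and 22.5% meeting no CAR-1(dSm) peak, against 33.0%, 38.2% and 34.2%. The difference between parts was not tested. In all, 73.3% of the CAR-1(FL) col peaks and 74.6% of the CAR-1(dSm) col peaks overlapped a peak of the other list on the same strand, against 69.3% and 53.5% of all peaks.

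The highest member by FPKM had almost no peaks. col-117 had 1 peak in each list, chrIV:8825916-8825987 and chrIV:8825914-8825982 on the plus strand, at 99% of the locus and across its 3′ edge. Their log2 folds were −0.11 in the CAR-1(FL) list and −0.05 in the CAR-1(dSm) list, both near 0. Its neighbour col-3, of the same locus length and with peaks on the opposite strand, likewise had 1 peak per list at its 3′ end. The members with the most peaks differed widely in level: col-71 (27 peaks, FPKM 1.39 and 1.29), col-99 (24), col-160 (22, FPKM 5.30 and 4.004), col-139 (20, FPKM 2.48 and 1.62) and col-129 (18), followed by 3 members with 17 peaks each, col-122, col-80 (FPKM 30.1 and 23.1) and col-81 (3.02 and 1.97). Members whose FPKM departed from the usual factor between the authors' tables had a median of 7 peaks, and those at the usual factor 12.

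The transmembrane collagen col-99, the longest locus, was listed at 0 with CAR-1(FL) and at 0.0635 with CAR-1(dSm), yet had 9 and 15 peaks. Its peaks held few reads, 8 against 2 in the highest fold of the CAR-1(dSm) list and 6 against 2 in that of the CAR-1(FL) list, and its median fold was near 0 (−0.01). It was below the FPKM filter, and on so few reads its direction cannot be placed either way. Its locus overlaps 3 other named loci, which may hold some of these peaks.

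Other genes of the cuticle were read from lists. For their counts, 54.5% of all 4361 tested genes lay above 0. A difference of 1 unit was reached by 14.3% toward CAR-1(FL) and 15.2% toward CAR-1(dSm), and 2.82% had bounds apart, higher in CAR-1(FL). Of 20 other cuticle collagens found, named for the shape of their mutants, 14 passed the filter; their median difference was 0.56, 12 lay above 0 and none differed by 1 unit. dpy-13 had an FPKM of 37.4 with CAR-1(FL) and 25.7 with CAR-1(dSm) and sqt-2 had 11.99 and 6.12, both with bounds apart, and sqt-3 had 39.5 and 32.3 with overlapping bounds. Of genes for collagen folding, processing and crosslinking only 3 of 17 passed, with a median of 0.24; pdi-2, a subunit of the prolyl hydroxylase that modifies collagens, had 23.7 and 19.9. Of 26 moulting and apical matrix genes 9 passed, with a median of 0.23, and 1 differed by 1 unit, the hedgehog-related qua-1, with 5.17 against 1.35. Of 23 epidermal regulators and structural genes 11 passed, with a median of 0.34 and 10 above 0; the junction gene ajm-1 had 5.56 and 3.51, with bounds apart.

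Lists of markers for other cell types are given as medians and as sums over the markers that passed the filter. Neuron markers lay toward CAR-1(dSm), with 7 of 10 tested, a median of −0.50, a summed FPKM of 5.95 against 15.2, and 3 of the 10 listed at 0 with CAR-1(FL), snb-1 among them, against 1 of 10 with CAR-1(dSm). Of the 7, snb-1, egl-3, egl-21, unc-31 and unc-104 passed the filter through CAR-1(dSm) alone, so the filter itself favours that direction. Only 3 had at least 20 implied fragments over both libraries. Muscle markers had a median of 0.24 over 9 tested and a summed FPKM of 202 against 173, intestine markers −0.15 over 8 and 382 against 395, and germline markers 0.13 over 10 and 69.1 against 67.1. The part of tissue composition in the col differences was not tested.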

How the data were processed

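Per the submitters' processing notes the reads went through UMI-tools, cutadapt, STAR and SAMtools on ce10, without versions; the sources used here do not name the peak caller, the annotation or the treatment of multi-mapped reads. The authors deposited an FPKM table per library with bounds, in the layout of Cufflinks per the file headers, a comparison table with FPKM, p-value and q-value columns, and a peak list per library with a −log10 p and a log2 fold over the other library. No header names these peak values, and their meaning was taken from the values themselves. A −log10 p above 0 was found only beside a positive fold.

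The members and gene lists were chosen with earlier results of these data known. Fragments were implied from the FPKM bounds, taken as 2 standard errors from the value. Reads behind peak folds were recovered as the whole numbers that give the listed fold and p, with Fisher's exact test below 5 reads and a Yates-corrected chi-square from there, within a relative tolerance of 0.003 and from a −log10 p of 0.1; 357 of 358 CAR-1(FL) and 82 of 82 CAR-1(dSm) col peaks gave numbers. The steps were tested on simulated data. Fold intervals are exact binomial, at 95%. The FPKM scale lies 0.17 log2 units further toward CAR-1(FL) than the scale of the peak folds. Peaks were assigned by 1 base of overlap without regard to strand, since the FPKM tables give none, so 59 members that overlap another named locus may hold its peaks. Coordinates are those of the files, counted from 1. The reference table, of another assembly, gave gene types only, and exons and UTRs are not described. No sequence is shown.

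Members were named where bounds lay apart, where the difference was at least 1 unit at an FPKM of at least 5, where a peak passed a −log10 p of 3 with a log2 fold of 1, among the 10 highest by FPKM and the 6 with the most peaks, and col-19 and col-99 always. Others named here (col-3, col-17, col-20, col-41, col-48, col-70, col-74, col-80, col-81, col-96, col-111, col-119, col-142, col-143 and col-184) were chosen after their values were seen. Alternatives were other pseudocounts, filters, centring, the comparison table, peak thresholds, overlaps and strand. Python 3.11.15, numpy 2.4.6, pandas 2.3.3 and scipy 1.17.1 were used.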

Additional observations from a re-analysis of the deposited data

How the results depend on the processing

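No paired analysis was possible because each group held 1 library and the labels give no replicate numbers; for the same reason no library could be left out. Of 56 summary values under alternatives, 39 stayed close, 17 moved and 0 reversed; of 255 values of single members 9 moved and 0 reversed. The 11 members past 1 unit toward CAR-1(FL) became 17 with a pseudocount of 0.1, 2 with a pseudocount of 5, 6 with an FPKM of at least 5, and 22 with the FPKM of the authors' deposited table; it was 7 among members with at least 20 implied fragments. Toward CAR-1(dSm) the count of 0 became 1 with the pseudocount of 0.1 and 3 with the authors' deposited table. The median difference of 0.42 became 0.24 with the pseudocount of 5, 0.34 with no filter and 0.28 once FPKM was brought to the read totals of the peak lists, where the median of all genes was −0.05. The share above 0 became 92.7% with an FPKM of at least 5. The 5 peaks past the thresholds became 25 at a log2 fold of at least 1, 12 at a −log10 p of at least 5 with that fold, and 3 without col-176 and col-101. Loci that overlap no other named locus held 293 and 284 of the 490 and 472 peaks, and 125 of the 472 CAR-1(dSm) peaks had a −log10 p above 0. The setting by read totals, the fragment minimum, the restriction to members at the usual factor and the omission of col-176 and col-101 were chosen after seeing the data. Depth limits the low members most: 22 of the 78 had under 20 implied fragments over both libraries. The causes were not tested, apart from the fewer members or peaks that a filter leaves.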

Other observations

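The spread of differences among neighbouring members was read beside their counting errors. Among col-17, col-20 and col-73 on chromosome II the FPKM differences ran from 0.15 to 0.73. Their counting errors were 0.41, 0.34 and 0.40, so this spread is not clearly beyond counting error. Among col-141, col-142 and col-143 on chromosome V the differences ran from 0.15 to 2.72. The highest was that of col-141, which was listed at 0 with CAR-1(dSm). In all, 49 members lay in 21 groups with gaps of at most 5000 bases. Members listed at 0 in both FPKM tables but with peaks included col-111 (4 and 3 peaks) and col-96 (3 and 3, in a locus that overlaps 2 other named loci), with median log2 folds over their peaks of 1.18 and 1.85 toward CAR-1(FL); both were chosen after their values were seen, and whether the peaks of col-96 belong to it cannot be told apart from its neighbours.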
